A study of Mus musculus with 6 samples.

Results

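Glycolysis, the pentose phosphate pathway and the tricarboxylic acid (TCA) cycle were examined through 56 mouse genes: the enzymes of the 3 pathways, the pyruvate dehydrogenase complex that joins glycolysis to the cycle, and enzymes that regulate or branch from them. The genes were taken as a fixed list of symbols, matched by Entrez gene ID, and all 56 were found among the 27179 genes of the count table. The libraries came from a transplantable mouse acute myeloid leukemia labelled A/E9a;NRASG12D, which carries AML1-ETO9a, a truncated splice product of RUNX1-RUNX1T1, and an activated NRAS. One group was leukemia from C57BL/6 mice given panobinostat, an inhibitor of histone deacetylases, for 3 days, and it was set against the same leukemia from C57BL/6 mice given vehicle for 3 days. In both groups GFP-positive, propidium iodide-negative cells were sorted from the spleen, and 3 libraries were made per group. The sources used here do not state age, sex or dose. Both groups carry the same leukemia under 1 name, so the values describe that leukemia. The labels do not say whether replicates were separate mice, so p-values rest on spread among libraries that may be technical.

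Glycolysis splits glucose into pyruvate in the cytosol, and lactate dehydrogenase turns pyruvate into lactate while renewing NAD. The pentose phosphate pathway branches off at glucose 6-phosphate; its oxidative arm yields NADPH and its non-oxidative arm, run by transketolase and transaldolase, interconverts sugar phosphates between ribose 5-phosphate and glycolysis. The pyruvate dehydrogenase complex carries pyruvate into mitochondria as acetyl-CoA, which the TCA cycle oxidizes. Rapidly dividing blood and leukemia cells are known for high glycolysis, and mature red cells, which have no mitochondria, live on glycolysis and the pentose phosphate pathway.

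Libraries held between 25794869 and 32571961 counts, and the 56 genes took between 0.984% and 1.08% of the counts in panobinostat libraries and between 1.21% and 1.28% in vehicle libraries. A single count was worth 0.0315 to 0.0403 CPM (read count relative to library size, scaled with TMM composition factors). Libraries are named by the leading number of their count column. The last number in the column name is the same in all libraries except panobinostat library 1, and what it stands for was not established here. Values are given for panobinostat libraries 1, 5 and 6 and then for vehicle libraries 2, 3 and 4. The sorted cells carried erythroid and mast cell transcripts together, and the summed neutrophil, B cell and T and NK cell markers were low, at 2.15 to 25.0 CPM over all libraries, without a call. Summed erythroid markers ran from 23709 to 52615 CPM with panobinostat and from 6034 to 7110 CPM with vehicle, and 8 of 14 tested ones were called higher. Summed macrophage markers were at 16.9 to 46.7 CPM with panobinostat and 12.6 to 16.1 CPM with vehicle, with 1 of 9 tested called higher. Mast cell markers ran from 1331 to 3804 CPM with panobinostat and 1842 to 2327 CPM with vehicle, without a call among 8. Dendritic cell markers ran from 176 to 254 CPM with panobinostat and 82.5 to 96.4 CPM with vehicle, with 3 of 5 tested called higher. Most of that sum was Bst2, at 154 to 236 CPM with panobinostat and 71.2 to 87.1 CPM with vehicle. The other called ones were Zbtb46 and Clec9a. Zbtb46 was at 15.0 to 19.0 CPM with panobinostat and 7.71 to 10.2 CPM with vehicle. Clec9a was at 0.750 to 3.27 CPM with panobinostat and 0.171 to 0.248 CPM with vehicle. Itgax, Flt3, Xcr1, Siglech and Ly6d were at 0.978 CPM or less in every library. Stroma and endothelium markers ran from 12.7 to 21.1 CPM with panobinostat and 2.06 to 2.62 CPM with vehicle. Of the 6 listed, 3 were tested (Pecam1, Kdr and Pdgfrb) and all 3 were called higher. With panobinostat the largest part was Kdr, at 7.54 to 17.8 CPM. Cdh5, Col1a1 and Col3a1 were at 0.293 CPM or less in every library and were not tested. Progenitor markers ran from 1687 to 2704 CPM with panobinostat and 1554 to 1764 CPM with vehicle, with 2 of 5 called higher. Over all tested genes the share called higher was 11.3%, and the marker lists were not tested against it. None of the listed markers was at 0 in all libraries. The part of these shifts in the results below was not tested. In sorted bulk RNA, fewer cells that express a gene and less of its RNA per cell cannot be told apart.

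Of the 56 genes 53 were abundant enough to test. Of these, 5 were called higher and 16 lower with panobinostat, at an adjusted p under 0.05 in edgeR's quasi-likelihood test over all 12916 tested genes, so 39.6% of the tested enzymes were called against 21.0% of all tested genes. The share called lower was 30.2% against 9.72% of all genes, and the share called higher was 9.43% against 11.3%. The groups did not overlap in 38 of the 53 genes (71.7%), with panobinostat below vehicle in 29 and above it in 9, against 44.6% of all tested genes. Most differences were small: 6 genes, or 11.3%, were called with a change of at least 1.5-fold, against 13.2% of all genes. The median log2 fold change was -0.21 over the 53 genes and 0.01 over all genes, and 38 of the 53 values were negative, while 51.1% of all genes had a positive one. Without TMM factors 3 members were called higher and 21 lower, and 35.5% of all called genes were higher, against 53.8% with them. Left out in turn, panobinostat libraries 5 and 6 left 10 and 12 called members (12.5% and 15.9% of all genes), and vehicle libraries 2, 3 and 4 left 5, 6 and 3 (4.65%, 9.54% and 3.32% of all genes).

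**Figure D1:**
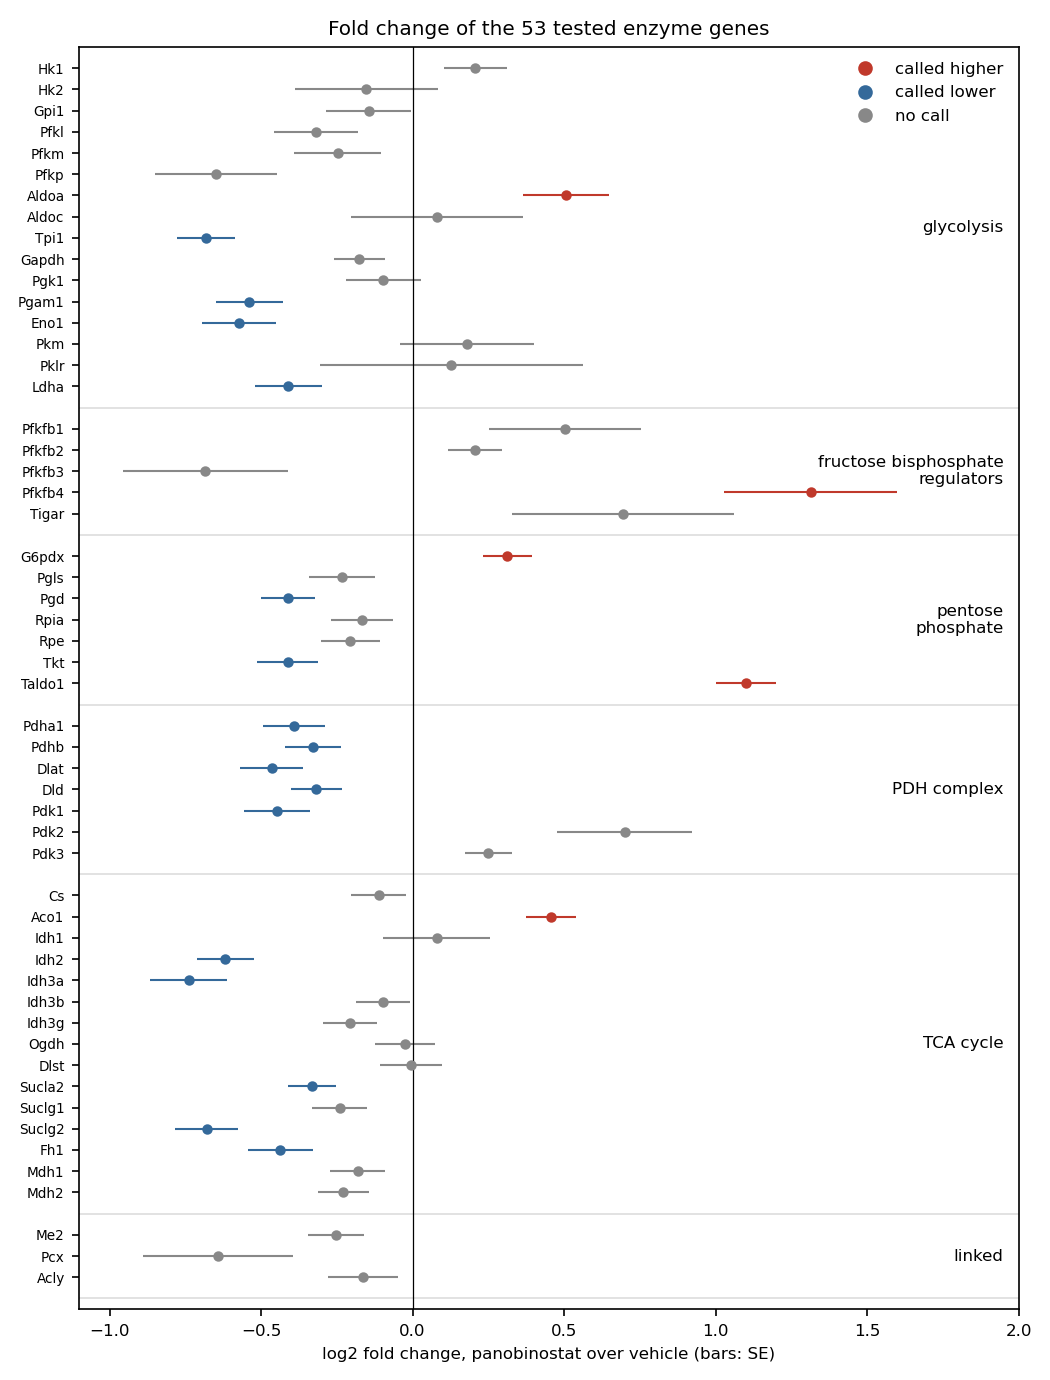
Log2 fold change of each of the 53 tested genes (x axis, panobinostat over vehicle, bars 1 SE), in pathway order from top to bottom; color marks the call at an edgeR adjusted p under 0.05. The 5 genes called higher (Aldoa, Pfkfb4, G6pdx, Taldo1, Aco1) stand apart from 16 called lower, and all 4 pyruvate dehydrogenase subunits at the top of that block lie left of 0.

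The 3 pathways had similar medians and mostly negative values, with differing counts of calls. The TCA cycle had 5 members called lower and 1 higher of 15, with a median log2 fold change of -0.21 and 13 negative values. Glycolysis had 4 lower and 1 higher of 16, with a median of -0.16 and 11 negative values. The pentose phosphate pathway had 2 lower and 2 higher of 7, with a median of -0.21 and 5 negative values. The pyruvate dehydrogenase complex and its kinases had 5 lower and 0 higher of 7, with a median of -0.33. Summed over its genes, the TCA cycle was at 2304 ± 99.7 CPM with panobinostat and 2616 ± 83.1 CPM with vehicle (SD, n = 3 each), without overlap between the libraries. The TCA list includes cytosolic enzymes such as Aco1 and Idh1 and leaves out succinate dehydrogenase, so this is not the sum of the mitochondrial cycle. The sum over glycolysis was 5715 ± 504 CPM with panobinostat and 6350 ± 574 CPM with vehicle, and its libraries overlapped. The sum over the pentose phosphate pathway was 1798 ± 89.9 CPM with panobinostat and 1740 ± 23.6 CPM with vehicle, also with overlap; within it Taldo1 rose and Tkt fell. The pathways were not tested against each other.

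**Figure D2:**
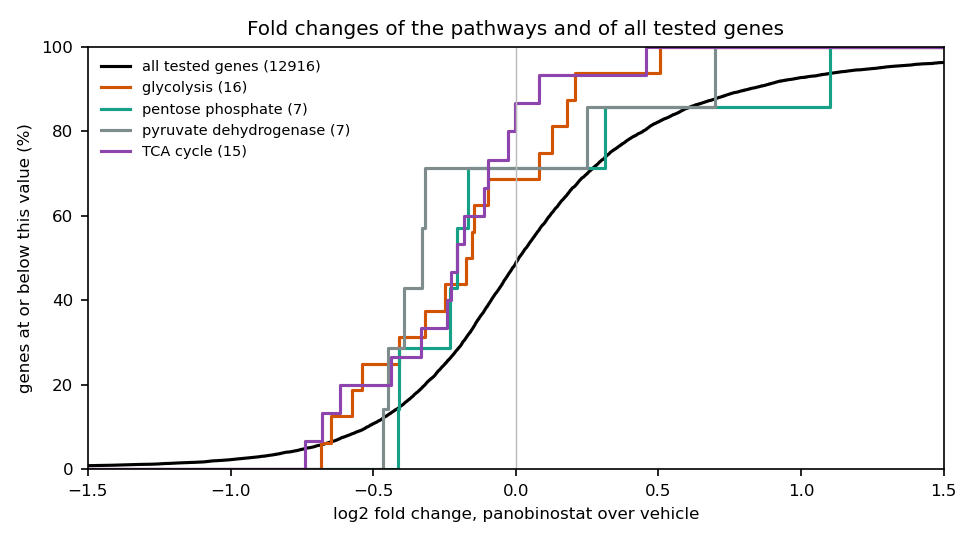
Cumulative share of genes (y axis, percent) at or below a log2 fold change (x axis, panobinostat over vehicle) for all 12916 tested genes (black) and for the tested members of 4 pathways (colored steps). Near a value of 0 the colored lines lie above the black line, with medians of -0.16 for glycolysis, -0.21 for the pentose phosphate pathway and the TCA cycle and -0.33 for the pyruvate dehydrogenase complex, against 0.01 for all genes.

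Taldo1, Tpi1 and Idh2 kept their call in each of 12 alternative analyses, including each of the 6 that leave out 1 library. Their promoters are shown because these are the members with a call in all of them. The windows are the 250 bases before the annotated start, from RefSeq on the mouse assembly GRCm38.p6: chr7:141391910-141392159 on the plus strand for Taldo1, chr6:124814159-124814408 on the minus strand for Tpi1 and chr7:80115351-80115600 on the minus strand for Idh2. The GENCODE gene starts of Tpi1 (124814296) and Idh2 (80115392) lie inside these windows. Capitals mark GC boxes (GGGCGG) and CCAAT boxes (CCAAT) found on either strand.
Taldo1: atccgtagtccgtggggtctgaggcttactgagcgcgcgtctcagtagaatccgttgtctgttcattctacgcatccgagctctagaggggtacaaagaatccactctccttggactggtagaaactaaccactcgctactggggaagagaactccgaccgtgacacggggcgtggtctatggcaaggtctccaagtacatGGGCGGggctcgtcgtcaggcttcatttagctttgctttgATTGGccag
Tpi1: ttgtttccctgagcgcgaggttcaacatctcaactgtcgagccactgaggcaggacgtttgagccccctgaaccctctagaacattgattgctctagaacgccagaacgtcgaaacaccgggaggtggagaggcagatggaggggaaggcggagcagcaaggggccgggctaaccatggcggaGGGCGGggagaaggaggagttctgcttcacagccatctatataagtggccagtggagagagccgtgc
Idh2: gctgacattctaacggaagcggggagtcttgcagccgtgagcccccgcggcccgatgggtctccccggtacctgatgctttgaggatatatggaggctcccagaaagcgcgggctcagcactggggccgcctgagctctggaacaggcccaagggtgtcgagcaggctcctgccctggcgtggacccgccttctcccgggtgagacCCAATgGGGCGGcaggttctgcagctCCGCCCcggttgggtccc
The Taldo1 window held 1 GC box and 1 CCAAT box, the Tpi1 window 1 GC box and 0 CCAAT boxes, and the Idh2 window 2 GC boxes and 1 CCAAT box. None of the 3 held the core of the hypoxia response element (ACGTG) on either strand, a sequence bound by hypoxia-inducible factors and contained in the E-box CACGTG. RefSeq gave 83 such windows for 54 of the 56 genes. A GC box was present in 54.2% of them, against 32.7% of all 32851 RefSeq windows, a CCAAT box in 41.0% against 33.9%, and the hypoxia core in 32.5% against 16.6%. The E-box was present in 10.8% against 6.02%. The core of the antioxidant element (TGACNNNGC, N being any base) went the other way, with 7.23% against 10.2%. The median GC content was 59.6% in the members' windows and 52.4% in all windows, and several windows of 1 gene overlap. These shares are descriptions.

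The early steps of glycolysis held no call with all libraries. Hk1, a hexokinase, which traps glucose in the cell as glucose 6-phosphate, was at 808, 987 and 901 CPM with panobinostat, against 801, 792 and 744 CPM with vehicle. Every panobinostat library lay above every vehicle library, but the difference did not pass (log2 fold change 0.21 ± 0.10 SE, edgeR adjusted p = 0.20; 0.045 without panobinostat library 1). Hk2, the inducible hexokinase, was at 29.2, 53.5 and 56.9 CPM with panobinostat, against 47.5, 50.9 and 56.8 CPM with vehicle, so panobinostat library 1 was below the vehicle range, library 6 was just above its top and library 5 was within it. Per kilobase of exon Hk1 made up 93.1 ± 1.68% of the hexokinase signal with panobinostat and 91.2 ± 1.01% with vehicle (Hk1, Hk2 and Hk3, SD, n = 3 each). Gpi1, which converts glucose 6-phosphate to fructose 6-phosphate, had a log2 fold change of -0.15 ± 0.14 and did not pass (edgeR adjusted p = 0.48).

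Phosphofructokinase commits the sugar to glycolysis, and its subunits are encoded by Pfkl, Pfkm and Pfkp, the liver, muscle and platelet forms. Pfkp was at 79.1, 133 and 129 CPM with panobinostat, against 166, 202 and 168 CPM with vehicle, so all 3 panobinostat libraries were below all 3 vehicle libraries. Its log2 fold change of -0.65 ± 0.20 did not pass (edgeR adjusted p = 0.059). Pfkp passed without panobinostat library 1 (0.023), in DESeq2 (0.014) and in 2 other edgeR alternatives. Pfkl was at 76.0, 101 and 105 CPM with panobinostat, against 110.2, 129 and 112 CPM with vehicle, also without overlap and without a call (-0.32 ± 0.14, edgeR adjusted p = 0.14). Pfkm was at 120.0, 92.6 and 108 CPM with panobinostat, against 143, 105 and 133 CPM with vehicle, and the groups overlapped (-0.25 ± 0.14, edgeR adjusted p = 0.25). Per kilobase of annotated exon, Pfkm made up 58.7 ± 7.86% of the 3 forms with panobinostat and 55.0 ± 6.29% with vehicle. That share depends on annotated lengths, 13.4 kilobases for Pfkp and 3.34 for Pfkm. Before division by length, Pfkp had the highest mean with vehicle, at 179 CPM against 127 CPM for Pfkm and 117 CPM for Pfkl. The main form is therefore uncertain.

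Below phosphofructokinase, neighbouring steps moved in opposite directions. Aldoa, the aldolase that cleaves fructose 1,6-bisphosphate, was at 833, 960 and 833 CPM with panobinostat, against 520, 730 and 601 CPM with vehicle. Aldoa rose 1.42-fold (edgeR adjusted p = 0.044), with no overlap between the groups. Tpi1, triosephosphate isomerase, which interconverts the products of aldolase, was at 242, 225 and 261 CPM with panobinostat, against 372, 411 and 385 CPM with vehicle. Tpi1 was 1.60-fold lower, a gap several times the spread within either group (log2 fold change -0.68 ± 0.10 SE, edgeR adjusted p = 0.0066; 0.044 at most in the alternatives). The log2 ratio of Aldoa to Tpi1 in CPM was 1.85 ± 0.22 with panobinostat and 0.65 ± 0.17 with vehicle (SD, n = 3 each). Aldoc, the aldolase of brain, was at 6.68 to 11.7 CPM with panobinostat and 6.20 to 11.4 CPM with vehicle.

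Lower glycolysis fell at several steps. Pgam1, phosphoglycerate mutase, was at 149, 176 and 167 CPM with panobinostat, against 219, 264 and 230.4 CPM with vehicle, and was 1.45-fold lower (edgeR adjusted p = 0.018). Eno1, enolase, was at 599, 692 and 679 CPM with panobinostat, against 860, 1106 and 967 CPM with vehicle, and was 1.49-fold lower (edgeR adjusted p = 0.020). Ldha, the lactate dehydrogenase subunit that favors lactate production, was at 823, 965 and 943 CPM with panobinostat, against 1112, 1311 and 1205 CPM with vehicle, and was 1.33-fold lower (edgeR adjusted p = 0.038). In all 3 genes every panobinostat library was below every vehicle library. Gapdh and Pgk1, the steps between, had log2 fold changes of -0.18 ± 0.08 and -0.10 ± 0.12 and did not pass (edgeR adjusted p = 0.17 and 0.60). Ldhb, the other main lactate dehydrogenase subunit, had 1 count in panobinostat library 1 and 0 in the other 5 libraries. Eno2, the neuronal enolase, had 4, 10 and 4 counts with panobinostat and 0 in each vehicle library, which allows at most 0.0969 to 0.106 CPM there; neither gene passed the filter on low counts, and Eno2 was called higher without that filter (edgeR adjusted p = 0.034).

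Some glycolytic genes have intronless copies in the genome that can share reads with them. Eno1b, such a copy of Eno1, was counted at 430.3 ± 32.5 CPM with panobinostat and 641 ± 78.2 CPM with vehicle with a log2 fold change of -0.58 ± 0.12, against -0.57 ± 0.12 for Eno1 (SD, n = 3 each; edgeR adjusted p = 0.018), and since reads of near-identical copies can be split between them the level of Eno1 is uncertain. Aldoart1, a copy of Aldoa, was at 34.5 ± 1.38 CPM with panobinostat and 25.3 ± 4.39 CPM with vehicle. Aldoa and Ldha lost their calls without panobinostat library 5 (edgeR adjusted p from 0.059 to 0.11) or 6 (0.075 to 0.078). Without vehicle library 2 Aldoa, Pgam1 and Ldha did not pass (0.052 to 0.13), without vehicle library 3 Pgam1, Eno1 and Ldha (0.062 to 0.14), and without vehicle library 4 all 4 of them (0.074 to 0.16). Aldoa also missed the threshold with library size alone (0.074).

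**Figure D3:**
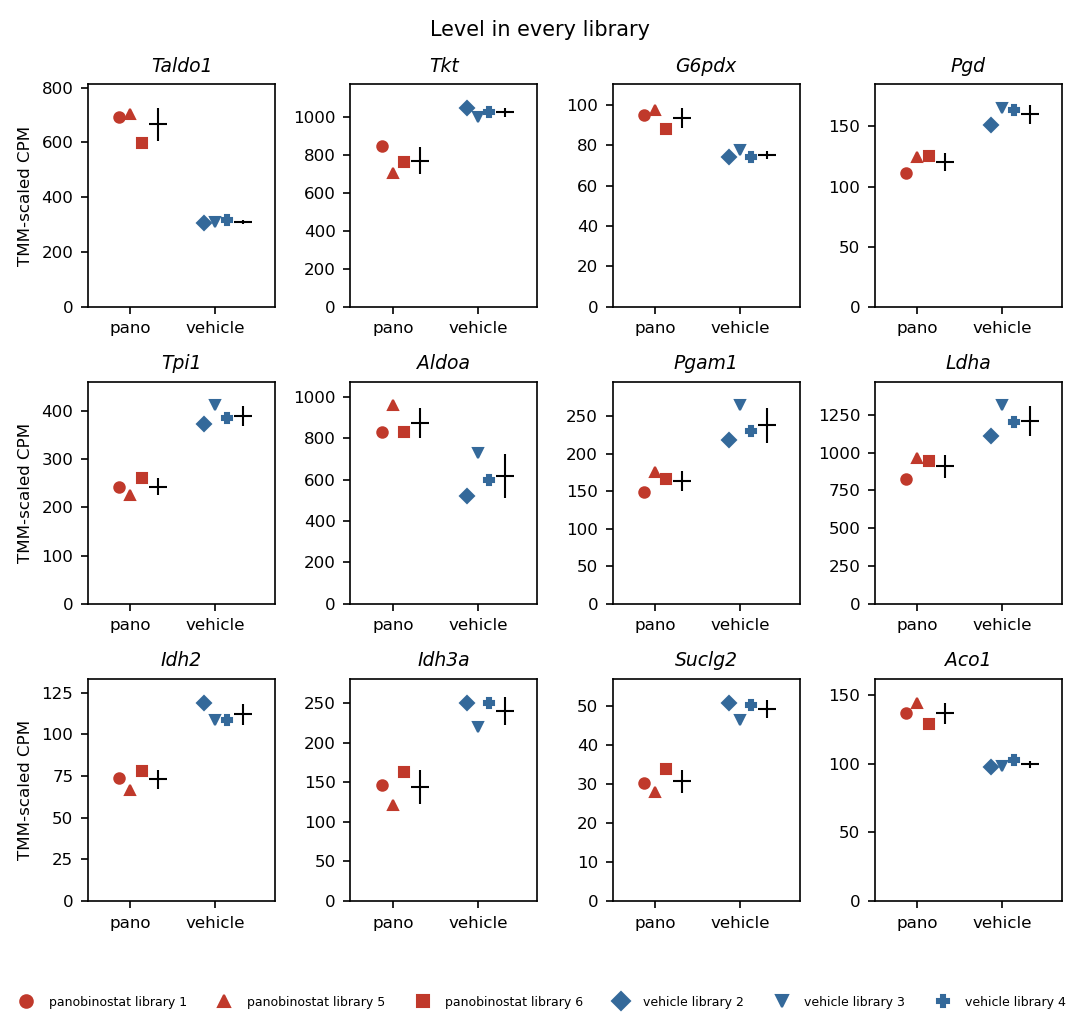
TMM-scaled CPM (y axis, from 0) of 12 enzyme genes in each of the 6 libraries; red symbols are panobinostat libraries, blue symbols vehicle libraries, and black marks the mean with 1 SD. All 12 were picked from the 21 called members, so that their panobinostat and vehicle libraries do not overlap follows largely from the choice. Over all tested genes the groups do not overlap in 44.6%. Taldo1, G6pdx, Aldoa and Aco1 are higher with panobinostat and the other 8 lower.

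Pyruvate kinase makes pyruvate, and its genes differed more between libraries than between groups. Pkm, which encodes the M1 and M2 forms of most tissues, was at 321, 511 and 390.3 CPM with panobinostat, against 288, 459 and 331 CPM with vehicle. Pklr, which encodes the liver and red cell forms, was at 72.4, 21.1 and 36.0 CPM with panobinostat, against 52.0, 27.3 and 39.4 CPM with vehicle. The groups overlapped in both genes and neither passed (edgeR adjusted p = 0.59 and 0.86). Pklr was highest, and Pkm lowest among treated libraries, in panobinostat library 1, where summed erythroid markers reached 52615 CPM and summed mast cell markers were 1331 CPM, against 3804 CPM of mast cell markers in panobinostat library 5. Per kilobase Pklr was 25.9%, 6.00% and 12.5% of the 2 pyruvate kinase genes in panobinostat libraries 1, 5 and 6, and 21.8%, 8.41% and 15.5% in vehicle libraries 2, 3 and 4. Pklr shares 22.0% of its exonic bases with Hcn3 on the opposite strand, and the sources used here do not state the strand setting of the counting.

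The bifunctional PFKFB enzymes set the level of fructose 2,6-bisphosphate, the main activator of phosphofructokinase. Pfkfb4 was at 3.62, 6.98 and 4.38 CPM with panobinostat, against 2.13, 2.06 and 1.82 CPM with vehicle, and rose 2.48-fold from a low level (log2 fold change 1.31 ± 0.29 SE, edgeR adjusted p = 0.021). The call was lost without vehicle library 2 (0.075), 3 (0.066) or 4 (0.096). Pfkfb3, the isoform with the strongest kinase activity, was at 19.7, 43.0 and 42.3 CPM with panobinostat, against 56.3, 57.3 and 54.9 CPM with vehicle. All panobinostat libraries were below all vehicle libraries, with a wider spread among the treated ones and no call (-0.68 ± 0.27, edgeR adjusted p = 0.11; 0.012 without panobinostat library 1). Pfkfb2 and Pfkfb1 had log2 fold changes of 0.21 ± 0.09 and 0.50 ± 0.25 and did not pass (edgeR adjusted p = 0.14 and 0.19). Per kilobase, Pfkfb3 made up 28.3 ± 8.49% of the 4 PFKFB genes with panobinostat and 44.6 ± 1.71% with vehicle (SD, n = 3 each), and Pfkfb4 6.29 ± 1.54% with panobinostat and 2.46 ± 0.14% with vehicle. Tigar, a p53 target that lowers fructose 2,6-bisphosphate, was at 1.37, 3.35 and 1.77 CPM with panobinostat, against 1.29, 1.45 and 1.23 CPM with vehicle, with overlapping groups and no call (edgeR adjusted p = 0.21).

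**Figure D4:**
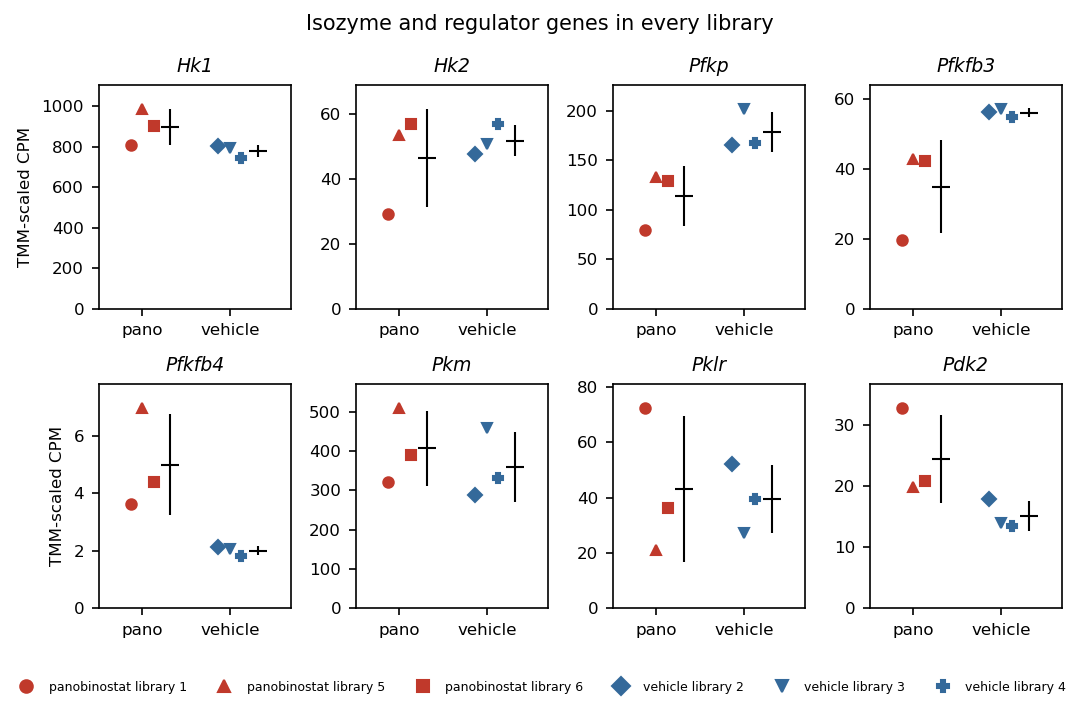
TMM-scaled CPM (y axis, from 0) of 8 isozyme and regulator genes in each library; red symbols are panobinostat libraries, blue symbols vehicle libraries, and black marks the mean with 1 SD. Panobinostat library 1 (red circle) is the lowest treated library in Hk1, Hk2, Pfkp, Pfkfb3, Pfkfb4 and Pkm and the highest in Pklr and Pdk2; Pfkfb4 is the called gene among them.

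Over all 53 tested members, panobinostat library 5 was the treated library farthest from the vehicle mean in 30, library 1 in 20 and library 6 in 3; over the 21 called members these counts were 16, 5 and 0. Of the 10 members with the widest spread among panobinostat libraries, library 1 was the lowest in 8 (Tigar, Pfkfb3, Hk2, Pfkfb4, Pcx, Aldoc, Pfkp and Idh1) and the highest in 2 (Pklr and Pdk2), members picked after their values were seen. The range among treated libraries exceeded that among vehicle libraries in 38 of 53 members, with a median of 0.24 log2 units for panobinostat and 0.14 for vehicle. Without library 1, 28 members were called, 7 higher and 21 lower, against 31.1% of all genes.

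The pentose phosphate pathway held the member with the clearest rise. Taldo1, transaldolase of the non-oxidative arm (Entrez gene 21351; GENCODE on GRCm38, chromosome 7, 141392199 to 141402968), was at 693, 705 and 597 CPM with panobinostat, against 304, 308 and 317 CPM with vehicle. The lowest panobinostat library was almost double the highest vehicle library. Taldo1 rose 2.14-fold (log2 fold change 1.10 ± 0.10 SE, edgeR adjusted p = 0.0028; 0.029 at most in the alternatives). Per kilobase its level was 306 ± 27.2 CPM with panobinostat, rank 1 of the 56 genes, and 143 ± 3.07 CPM with vehicle, rank 5 (SD, n = 3 each). At rank 2 with panobinostat Aldoa, at 301 ± 25.1 CPM per kilobase, did not differ from it beyond the spread. With vehicle the ranks above Taldo1 were held by Ldha, Aldoa, Pgk1 and Eno1, whose own level is uncertain as given above. These ranks depend on annotated exon lengths. Before division by length, Taldo1 had a mean of 665 CPM with panobinostat. The panobinostat means of Ldha, Hk1, Aldoa and Tkt were higher, at 910, 899, 875 and 768 CPM.

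Tkt, transketolase, the partner of transaldolase in the same arm, moved the other way. Tkt was at 843, 700.4 and 762 CPM with panobinostat, against 1043, 998 and 1027 CPM with vehicle, and was 1.33-fold lower (edgeR adjusted p = 0.029). The log2 ratio of Taldo1 to Tkt in CPM was -0.21 ± 0.19 with panobinostat and -1.72 ± 0.05 with vehicle (SD, n = 3 each), a difference of 1.51. In the oxidative arm, G6pdx, the glucose 6-phosphate dehydrogenase that makes the first NADPH, was at 94.8, 97.5 and 88.0 CPM with panobinostat, against 73.9, 77.5 and 74.3 CPM with vehicle, and rose 1.24-fold (edgeR adjusted p = 0.035). Pgd, 6-phosphogluconate dehydrogenase, which makes the second NADPH, was at 112, 124 and 125 CPM with panobinostat, against 151, 165 and 164 CPM with vehicle, and was 1.33-fold lower (edgeR adjusted p = 0.021). Each arm thus held 1 gene that rose and 1 that fell. Pgls, the lactonase between them, and Rpia and Rpe, the isomerase and epimerase of pentose phosphates, had log2 fold changes of -0.23, -0.17 and -0.21 and did not pass (edgeR adjusted p from 0.17 to 0.27).

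The calls of G6pdx, Pgd and Tkt ended when vehicle library 2 (edgeR adjusted p 0.058 to 0.11), 3 (0.078 to 0.0997) or 4 (0.10 to 0.15) was left out. G6pdx and Tkt also missed the threshold without panobinostat library 5 (0.073 and 0.092), and Tkt without panobinostat library 6 (0.076). G6pdx was also lost when scaled by library size alone (0.099) or without a filter on low counts (0.066). It shares 13.6% of its exonic bases with Ikbkg on the opposite strand. G6pd2, the retrocopy of G6pdx, was at 4.18 ± 0.190 CPM with panobinostat and 3.72 ± 0.714 CPM with vehicle (SD, n = 3 each).

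The pyruvate dehydrogenase complex fell across its subunits. Pdha1 and Pdhb encode the chains of the E1 decarboxylase, Dlat the E2 acetyltransferase core and Dld the E3 dehydrogenase that the complex shares with the oxoglutarate dehydrogenase complex. Dlat was at 53.1, 44.0 and 50.9 CPM with panobinostat, against 72.8, 64.3 and 67.2 CPM with vehicle, and was 1.38-fold lower (edgeR adjusted p = 0.022). Pdha1 was at 57.4, 68.9 and 70.5 CPM with panobinostat, against 89.0, 84.2 and 85.1 CPM with vehicle, and was 1.31-fold lower (edgeR adjusted p = 0.035). Dld was at 87.4, 80.4 and 87.7 CPM with panobinostat, against 109, 100.3 and 109 CPM with vehicle, and was 1.25-fold lower (edgeR adjusted p = 0.037). Pdhb fell by 0.33 ± 0.09 on the log2 scale (edgeR adjusted p = 0.043), and none of the 4 genes overlapped between groups. Pdhx, the binding protein of E3, was at 29.4, 23.3 and 29.9 CPM with panobinostat, against 39.2, 37.7 and 40.9 CPM with vehicle, and 1.43-fold lower (edgeR adjusted p = 0.028), a call lost without any 1 vehicle library or panobinostat library 5. Pdha1 shares 16.1% of its exonic bases with Map3k15 on the opposite strand.

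Pyruvate dehydrogenase kinases switch the complex off by phosphorylation, and 1 of their 3 tested genes was called. Pdk1, a target of hypoxia-inducible factor, was at 20.1, 19.8 and 20.8 CPM with panobinostat, against 29.7, 28.4 and 24.8 CPM with vehicle, and was 1.36-fold lower (edgeR adjusted p = 0.030). Pdk2 was at 32.8, 19.8 and 20.8 CPM with panobinostat, against 17.9, 13.9 and 13.4 CPM with vehicle, and Pdk3 at 109.6, 114 and 108 CPM with panobinostat, against 90.0, 97.3 and 91.1 CPM with vehicle. Both were above vehicle in every library and missed the threshold, with log2 fold changes of 0.70 ± 0.22 and 0.25 ± 0.08 (edgeR adjusted p = 0.063 and 0.061; called in DESeq2 at 0.019 and 0.029). Per kilobase Pdk3 was the main kinase gene in both groups, at 80.7 ± 3.52% with panobinostat and 81.3 ± 2.24% with vehicle, while Pdk1 was 4.88 ± 0.296% with panobinostat and 7.97 ± 0.576% with vehicle (SD, n = 3 each). The calls of Pdha1, Pdhb, Dlat, Dld and Pdk1 all ended without vehicle library 2 (edgeR adjusted p 0.085 to 0.12), 3 (0.055 to 0.099) or 4 (0.070 to 0.16) and without panobinostat library 5 (0.054 to 0.11). Without panobinostat library 6, 4 of them other than Pdha1 were lost (0.0503 to 0.11), Pdhb missed the threshold without a filter on low counts (0.051), and Pdk3 passed without panobinostat library 1 (0.041).

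In the TCA cycle the genes called lower were Idh3a, Idh2, Suclg2, Fh1 and Sucla2. Idh3a, the catalytic chain of the NAD-dependent isocitrate dehydrogenase, was at 147, 121 and 163 CPM with panobinostat, against 250.4, 219 and 250.1 CPM with vehicle. Idh3a was 1.67-fold lower (log2 fold change -0.74 ± 0.13 SE, edgeR adjusted p = 0.012). The other chains of that enzyme had smaller differences: Idh3b had a log2 fold change of -0.10 ± 0.09 and Idh3g of -0.21 ± 0.09, and neither passed (edgeR adjusted p = 0.45 and 0.14). The log2 ratio of Idh3a to Idh3b in CPM was 0.05 ± 0.17 with panobinostat and 0.70 ± 0.10 with vehicle (SD, n = 3 each). Idh2, the mitochondrial NADP-dependent isocitrate dehydrogenase, was at 73.8, 66.9 and 78.2 CPM with panobinostat, against 119, 108 and 108 CPM with vehicle. Idh2 was 1.53-fold lower (log2 fold change -0.62 ± 0.09 SE, edgeR adjusted p = 0.0081; 0.046 at most in the alternatives). Idh1, its cytosolic counterpart, was at 21.1, 34.4 and 30.0 CPM with panobinostat, against 27.8, 26.4 and 26.6 CPM with vehicle, with no call (edgeR adjusted p = 0.78).

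Succinyl-CoA ligase makes a nucleotide triphosphate directly in the cycle; Suclg1 is its shared chain, Suclg2 gives the GTP-forming and Sucla2 the ATP-forming enzyme. Suclg2 was at 30.3, 27.9 and 33.8 CPM with panobinostat, against 50.8, 46.5 and 50.2 CPM with vehicle, and was 1.60-fold lower (edgeR adjusted p = 0.0085). Sucla2 was at 59.8, 55.9 and 59.4 CPM with panobinostat, against 73.4, 71.3 and 75.8 CPM with vehicle, and was 1.26-fold lower (edgeR adjusted p = 0.028). Per kilobase Suclg2 made up 31.2 ± 1.53% of the 2 nucleotide-specific chains with panobinostat and 36.6 ± 0.727% with vehicle (SD, n = 3 each), without overlap. Fh1, fumarase, was at 101, 79.3 and 88.9 CPM with panobinostat, against 126, 115 and 123 CPM with vehicle, and was 1.35-fold lower (edgeR adjusted p = 0.031). Suclg1 and Mdh2, mitochondrial malate dehydrogenase, were below vehicle in every library without passing (-0.24 ± 0.09 and -0.23 ± 0.08, edgeR adjusted p = 0.098 and 0.095).

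At entry into the cycle and at the oxoglutarate step, Cs, Ogdh and Dlst showed no call. Dld, which the oxoglutarate step shares with pyruvate dehydrogenase, was called lower as given above. Cs, citrate synthase, was at 391, 353 and 369 CPM with panobinostat, against 427, 386 and 389 CPM with vehicle, and the groups overlapped (-0.11 ± 0.09, edgeR adjusted p = 0.41). Ogdh and Dlst, subunits of the oxoglutarate dehydrogenase complex, had log2 fold changes of -0.03 ± 0.10 and -0.004 ± 0.10 (edgeR adjusted p = 0.87 and 0.98). Aco1, the cytosolic aconitase that also acts as iron regulatory protein 1 when it loses its iron-sulfur cluster, was the 1 gene of the TCA list that rose, to 137, 145 and 129 CPM with panobinostat, against 98.1, 98.5 and 103 CPM with vehicle (1.37-fold, edgeR adjusted p = 0.013).

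The calls of Aco1, Sucla2 and Fh1 were lost without vehicle library 2, 3 or 4, and those of Sucla2 and Fh1 also without panobinostat library 5 or 6. Idh3a was lost without vehicle library 2 or 4, and Suclg2 without vehicle library 4. In these fits the edgeR adjusted p of the lost genes ran from 0.057 to 0.11 without vehicle library 2, 0.055 to 0.080 without vehicle library 3, 0.056 to 0.13 without vehicle library 4, 0.069 to 0.079 without panobinostat library 5 and 0.062 to 0.079 without panobinostat library 6. Idh3g, Suclg1 and Mdh2 passed without panobinostat library 1 (0.031 to 0.034) and with library size alone (0.028 to 0.039). Mdh2 also passed in DESeq2 (DESeq2 adjusted p = 0.042).

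Of the 3 tested branch enzymes 0 were called by edgeR, against 21.0% of all tested genes. Among these 3 enzymes 2 had an unadjusted p under 0.05, and Me2 was called when scaled by library size alone (edgeR adjusted p = 0.035). Pcx, pyruvate carboxylase, which refills oxaloacetate, was at 4.34, 6.37 and 8.01 CPM with panobinostat, against 11.1, 9.82 and 8.26 CPM with vehicle (-0.64 ± 0.25, edgeR adjusted p = 0.11). Acly, the citrate lyase that supplies cytosolic acetyl-CoA for lipids and histone acetylation, was at 272, 346 and 347 CPM with panobinostat, against 370, 361 and 349 CPM with vehicle (-0.16 ± 0.12, edgeR adjusted p = 0.34). Both were below vehicle in every library, narrowly for Acly. Me2, mitochondrial malic enzyme, had a log2 fold change of -0.25 ± 0.09 (edgeR adjusted p = 0.089), and Me1, the cytosolic form, was at 0.194 CPM or less in every library and was not tested.

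Among 12 tested genes of glucose, lactate and pyruvate transport 1 was called higher and 1 lower, or 16.7% against 21.0% of all tested genes. Slc2a1, the glucose transporter GLUT1, was at 419, 205 and 248 CPM with panobinostat, against 98.4, 136 and 129 CPM with vehicle, and rose 2.39-fold (edgeR adjusted p = 0.020). Slc16a1, the monocarboxylate transporter MCT1 that carries lactate and pyruvate, was at 78.9, 70.8 and 97.1 CPM with panobinostat, against 127, 119 and 144 CPM with vehicle, and was 1.58-fold lower (edgeR adjusted p = 0.018). Slc2a3, the transporter GLUT3, had a log2 fold change of 0.66 ± 0.23 and did not pass (edgeR adjusted p = 0.083). It was called in DESeq2 and without panobinostat library 1. Slc2a1 missed the threshold without vehicle library 2, 3 or 4 and Slc16a1 without vehicle library 2 or 4 (edgeR adjusted p up to 0.088 for Slc2a1 and 0.084 for Slc16a1).

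Of 16 tested regulators 3 were called, all higher, or 18.8% against 21.0% of all tested genes. Txnip, an arrestin-like protein that limits glucose uptake and is induced by glucose, was at 1573, 1657 and 1474 CPM with panobinostat, against 481, 750 and 686 CPM with vehicle, and rose 2.45-fold (edgeR adjusted p = 0.0054). Nfe2l2, which encodes NRF2, a factor known to activate NADPH-producing genes, rose 1.65-fold (edgeR adjusted p = 0.0063). Foxo3 rose 1.41-fold (edgeR adjusted p = 0.024), a call lost without vehicle library 2 or 4 and without panobinostat library 5 or 6. Hif1a, the oxygen-regulated factor that activates glycolytic genes, was at 84.7, 162 and 135 CPM with panobinostat, against 138, 139 and 139 CPM with vehicle, with no call (edgeR adjusted p = 0.70). Myc, which also activates glycolytic genes, had a log2 fold change of -0.23 ± 0.11 without a call (edgeR adjusted p = 0.16, or 0.048 when scaled by library size alone).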

How the data were processed

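RNA of sorted spleen leukemia cells was purified by Trizol extraction and column cleanup and made into TruSeq RNA libraries, per the labels' protocols. The deposited values are raw read counts per Entrez gene, 1 column per library. The submitters' processing notes name HISAT2 2.1.0, featureCounts of Subread 2.0.0, cutadapt 2.1, bcl2fastq 2.17.1.14 and FastQC 0.11.6, with the build mm10. The sources used here state neither the annotation nor the strand setting nor how multi-mapping reads were counted. Columns were tied to a group by the word treated or control, and 0 columns were left unused. All libraries differed beyond sampling noise.

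Names came from RefSeq (GRCm38.p6) by Entrez ID, exon lengths and overlaps from GENCODE M21. Genes with low counts were removed with filterByExpr, and the groups were compared with the quasi-likelihood test (R 4.3.3, edgeR 4.0.16), a model of treatment alone, TMM factors and p-values adjusted by Benjamini-Hochberg over the 12916 genes tested. Standard errors are the absolute log2 fold change over the square root of F. CPM are TMM-scaled; CPM per kilobase divide by the length of all annotated exons. Limits from a count of 0 use 3 counts and cover counting error only. The smallest p of an exact permutation test with 3 libraries a side is 0.1, so levels and ratios carry no test. On counts simulated for panobinostat against vehicle over 12916 genes the test recovered 81% of the 2-fold changes and 99% of the 4-fold changes; smaller changes were not simulated.

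Values in every library are given for every called member with at least 1.5-fold change, the 12 further called members with the smallest p, isozymes of called steps and a fixed set of key enzymes. Members, lists and naming rule were chosen with earlier results of these data known; 1 gene outside the 56 is not reported here. Alternatives were DESeq2 1.42.0, limma-voom (limma 3.58.1), 3 normalizations, no filter, and leaving out each of the 6 libraries.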

Additional observations from a re-analysis of the deposited data

How the results depend on the processing

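All 21 called members kept their direction in all 12 alternatives, and 18 of them kept the call in each of the 6 alternatives that use every library. Leaving out single libraries ended 18 of the 21 calls at least once: the count of called members ran from 3 to 28, of glycolysis from 1 to 7, of the pentose phosphate pathway from 1 to 4 and of the TCA cycle from 1 to 9, while calls over all genes ran from 438 to 4056. The lowest counts came without vehicle library 4, where 5.66% of members and 3.32% of all genes were called; leaving out vehicle library 2 gave 5 called members, leaving out vehicle library 3 gave 6, and leaving out panobinostat library 5 or 6 gave 10 or 12. The cause of these differences was not tested. Library size alone moved the median of all genes from 0.01 to -0.10 on the log2 scale and gave 3 members higher and 21 lower, a share of 12.5% higher against 23.8%, while that share over all called genes was 35.5% against 53.8%. It moved the median log2 fold change of the pentose phosphate pathway to -0.31 and of the TCA cycle to -0.31, and leaving out single libraries moved that of the pentose phosphate pathway between -0.24 and -0.15. Of the 32 members without a call, 8 changed sign in at least 1 alternative, and 9 were called in at least 1. No paired analysis was possible because the count columns do not carry the replicate numbers of the labels. Eno2, Ldhb and Me1 were too low to test at this depth.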

Other observations

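Isozymes and neighbours of the 56 genes were mostly without a call. Of 10 tested other glycolytic and gluconeogenic genes, edgeR called 0 at an adjusted p under 0.05, against 21.0% of all tested genes. Among these 10 genes 3 had an unadjusted p under 0.05, DESeq2 called Bpgm and limma-voom called Hkdc1. Hkdc1, a hexokinase-like gene, was at 1.73, 12.6 and 6.78 CPM with panobinostat, against 19.8, 29.8 and 15.9 CPM with vehicle, below in every library and without a call (edgeR adjusted p = 0.094). Bpgm, which makes 2,3-bisphosphoglycerate in red cells, was at 166, 51.7 and 64.5 CPM with panobinostat, against 43.2, 38.1 and 39.1 CPM with vehicle (edgeR adjusted p = 0.071). Hkdc1 and Bpgm, named after their values were seen, both passed without panobinostat library 1 and without panobinostat library 5. Of 6 further tested pentose phosphate genes 1 was called, or 16.7% against 21.0% of all tested genes. The called gene was Prps1, which makes phosphoribosyl pyrophosphate from ribose 5-phosphate. Prps1 was at 60.6, 52.4 and 61.7 CPM with panobinostat, against 86.8, 79.6 and 86.5 CPM with vehicle. It was 1.45-fold lower (edgeR adjusted p = 0.013), a call lost without vehicle library 2 or 4. The 4 succinate dehydrogenase genes had log2 fold changes of -0.26 for Sdha, -0.19 for Sdhb, -0.19 for Sdhc and -0.38 for Sdhd. None passed with all libraries in the main fit (edgeR adjusted p from 0.068 to 0.37). Sdha passed in DESeq2 and with library size alone, and Sdhb and Sdhc passed without panobinostat library 1 (edgeR adjusted p = 0.030 and 0.026).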
